A study of Mus musculus with 48 samples.

Results

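The transcriptional response of a Copaxone-specific T cell culture to ACN was set against its response to Copaxone. ACN is a related copolymer that shares the amino acids and chain lengths of glatiramer acetate yet differs from it in structure, and Copaxone is a marketed glatiramer acetate. The 8 samples whose titles mark them as ACN, all of 1 lot, were compared with the 17 samples marked as Copaxone, from 9 lots, 25 of the 48 samples of the series. Each sample was 1 well with cells of a Th2 line, CD4+ T cells of female Balb/c mice aged 8 to 12 weeks raised against Copaxone and restimulated for 13 rounds, mixed with naive Balb/c splenocytes as antigen-presenting cells (APCs). Each test article was present at 20 μg/mL for 24 h. The remaining samples, 16 treated with Glatopa (a generic glatiramer acetate, 4 lots) and 7 media-only controls with mannitol (called Media below), served to say what each gene does in this culture when a glatiramer acetate is added. The question was whether the assay separates a related copolymer from Copaxone, and which transcripts carry the difference.

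Glatiramer acetate is a mixture of random polypeptides used to treat relapsing multiple sclerosis. Its peptides are presented on MHC class II molecules to CD4+ T cells, and T cells raised against it in mice tend to adopt a Th2 phenotype, in which IL-4, IL-5 and IL-13 are secreted. On restimulation such cells transcribe cytokine and chemokine genes, enlarge, make ribosomes and enter the cell cycle, while the cytokines they release act on the macrophages, dendritic cells and B cells beside them.

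Labelled cRNA of each well was hybridized with 1 dye to an Agilent mouse array, and the values are background-corrected, quantile-normalized log2 intensities, so the level of a gene is set by its rank among the probes of the same array. The table gave 39430 probes after spots that share a symbol and accession were averaged where there were 10 or more, of which 29436 carry a gene symbol. Array medians ranged from 4.95 to 5.02, and the 25 samples correlated with each other between 0.934 and 0.99 across probes. The labels name CD4+ T cells, but RNA of the splenocytes was measured as well. The B cell gene Cd79b stood at 12.90 with ACN and 12.98 with Copaxone. The probe for Cd4 stood at 5.14 with ACN and 5.12 with Copaxone, close to the array medians. A list of 18 T cell identity genes, Cd4 among them, averaged 7.02 with ACN and 6.96 with Copaxone. The Cd4 probe alone therefore does not give the level of T cell RNA. On the first component of the variation within groups, which held 12.0% of it, 4 arrays stood apart with scores above 30: ACN replicate 2 and the replicates numbered 1 of Copaxone lots 3, 7 and 9. Samples were separate wells of 1 T cell line handled on 1 day, so p-values measure the spread between wells. ACN was 1 lot, so ACN and its lot cannot be told apart, and since the cultures were mixed, fewer cells of a type and less RNA per cell cannot be told apart either.

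Few probes passed the adjusted limit between ACN and Copaxone, and their differences were small. With limma and Benjamini-Hochberg adjustment over all probes, 44 probes had an adjusted p under 0.05 and are called here, 0.112% of the 39430 tested. Of these, 16 were lower with ACN (0.0406% of all probes) and 28 were higher (0.0710%). The fold changes ranged from 1.17 to 1.68 with a median of 1.33. Of the 44, 30 reached 1.3-fold and 5 reached 1.5-fold. At an unadjusted p under 0.05 there were 3158 probes, 8.01% of all, with 3.87% lower and 4.14% higher. The 90% interval of the difference lay within 1.3-fold in either direction for 90.4% of the probes and within 1.5-fold for 96.4%. No detection filter was applied, so these shares include dim probes, and the median level over all probes was 4.93. The count was sensitive to leaving out 1 ACN sample or 1 Copaxone lot. It was 5 without ACN replicate 4 and 7 without ACN replicate 2. Without Copaxone lots of 2 samples each, it was 4 without lot 2, 6 without lot 4, 5 without lot 7 and 62 without lot 1. With the methods' t-test and the same adjustment it was 11. Leaving out the 4 arrays that stood apart left 6, of which 3 were among the 44.

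Among the lower transcripts were the cytokines Il3, Il4 and Ifng. Il3 and Il4 lie on chromosome 11 and Ifng on chromosome 10. The sequence around the start of each is printed because these are the called genes that encode T cell cytokines, and transcription of T cell cytokines after receptor engagement depends on NFAT, a factor that binds the core GGAAA. RefSeq promoters of assembly GRCm38.p6 run from 250 bases before to 50 bases after the start, 5′ to 3′ on the strand of the gene, with each GGAAA or its complement TTTCC in capitals. The windows are chr11:54267230-54267529 (minus strand) for Il3, chr11:53618616-53618915 (minus strand) for the upstream of 2 starts of Il4, and chr10:118440796-118441095 (plus strand) for Ifng.
Il3: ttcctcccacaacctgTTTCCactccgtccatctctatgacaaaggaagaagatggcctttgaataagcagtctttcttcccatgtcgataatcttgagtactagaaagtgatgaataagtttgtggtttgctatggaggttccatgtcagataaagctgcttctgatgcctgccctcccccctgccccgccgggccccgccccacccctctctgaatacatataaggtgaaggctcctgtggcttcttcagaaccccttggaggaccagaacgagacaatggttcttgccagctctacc
Il4: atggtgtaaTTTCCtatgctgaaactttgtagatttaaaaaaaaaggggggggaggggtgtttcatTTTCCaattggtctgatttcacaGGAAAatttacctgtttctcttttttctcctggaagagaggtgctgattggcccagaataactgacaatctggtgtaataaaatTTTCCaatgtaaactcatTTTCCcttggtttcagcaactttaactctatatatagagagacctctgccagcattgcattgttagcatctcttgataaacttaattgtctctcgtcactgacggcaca
Ifng: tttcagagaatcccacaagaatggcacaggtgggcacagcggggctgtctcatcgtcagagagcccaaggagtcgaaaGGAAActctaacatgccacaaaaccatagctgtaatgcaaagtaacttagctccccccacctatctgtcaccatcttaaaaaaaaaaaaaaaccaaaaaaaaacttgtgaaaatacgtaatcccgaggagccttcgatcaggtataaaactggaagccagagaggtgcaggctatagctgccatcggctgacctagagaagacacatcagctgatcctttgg
The core was found 1 time for Il3, 5 times at the printed start of Il4 (4 as TTTCC) and 1 time for Ifng. At the other Il4 start, which is not printed, it was found 1 time. It was present at least 1 time in 61.3% of the 32851 promoters of the same length and at least 3 times in 9.42%. A match in these windows is a description of the letters and not a binding site.

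Il3 (gene ID 16187), which supports mast cells, basophils and early myeloid cells, had the largest fold change among the 44 called probes. Its log2 values with ACN were 7.65 at the lowest, 8.03 at the median and 8.46 at the highest, and with Copaxone 8.40, 8.80 and 9.13. The groups overlapped in 2 ACN samples, and the other 6 lay below every Copaxone sample. The log2 difference was -0.75 (SE 0.10, limma adjusted p = 0.00177), a 1.68-fold lower level. Il3 stood far above Media in both groups, by 2.93 with ACN and by 3.68 with Copaxone on the log2 scale. The Il3 call held when any single ACN sample or Copaxone lot was left out, and was lost in 1 of all 27 alternative fits (limma adjusted p = 0.287).

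Il4 (gene ID 16189), which drives Th2 differentiation and IgE switching, was lower with ACN to a smaller extent. The lowest, median and highest log2 values were 7.36, 7.42 and 7.68 with ACN and 7.62, 7.83 and 8.15 with Copaxone. ACN samples formed the low end, with 5 of 8 below every Copaxone sample, and 3 within the Copaxone range. The difference was -0.36 (SE 0.06, limma adjusted p = 0.0342), against a rise over Media of 2.07 with ACN and 2.43 with Copaxone. The value is the mean of 10 spots, all of which were lower with ACN, by 0.22 to 0.49, and 1 of which was called alone. The Il4 call was lost without ACN replicate 2 or 7 or Copaxone lot 2, 4 or 7, with adjusted p between 0.0528 and 0.0769 in limma, and without the 4 arrays that stood apart (0.137).

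Ifng (gene ID 15978), the interferon that activates macrophages and defines Th1 cells, was near the low end of the scale in this Th2 culture. Its lowest, median and highest log2 values were 5.04, 5.55 and 6.04 with ACN and 5.69, 6.01 and 6.46 with Copaxone. All ACN samples but replicate 1 lay below the Copaxone range. The difference was -0.52 (SE 0.10, limma adjusted p = 0.0359), and the level over Media was 0.54 with ACN and 1.06 with Copaxone. Without ACN replicate 4 the adjusted p was 0.135 and without replicate 2 it was 0.0935. The call was also lost without ACN replicates 5, 6, 7 or 8 or Copaxone lots 2, 3, 4, 5, 7 or 8, with adjusted p between 0.0516 and 0.079 in limma, and without the 4 arrays that stood apart (0.16).

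The other Th2 cytokines were not called, and their intervals differed in width. Of the 9 measured, 2 were called lower, 4 had an unadjusted p under 0.05 and a negative difference, and 8 had a negative difference, with a median of -0.17. Over all probes, 0.0406% were called lower, 3.87% were lower at the unadjusted limit, 20520 of 39430 had a negative difference and the median was -0.00. Csf2, the granulocyte-macrophage growth factor, differed by -0.17 (95% interval -0.27 to -0.06, adjusted p = 0.242). Il9, a mast cell cytokine, differed by -0.19 (-0.36 to -0.03, adjusted p = 0.517). Il10, an anti-inflammatory cytokine, differed by -0.08 (-0.17 to 0.01). The signature Th2 cytokines Il5 and Il13 varied widely between samples of 1 group. Il13, which acts on epithelium and macrophages, ranged from 8.49 to 9.96 with ACN and from 7.57 to 12.26 with Copaxone, and its difference of -0.41 had a 95% interval from -1.14 to 0.31. Il5, the eosinophil growth factor, stood at 9.52 ± 0.31 with ACN (SD, n = 8) and 9.54 ± 0.53 with Copaxone (SD, n = 17), a difference of -0.02 (-0.41 to 0.37). Il24 at -0.03 and Il31 at 0.10 lay near the level of Media in both groups.

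**Figure D1:**
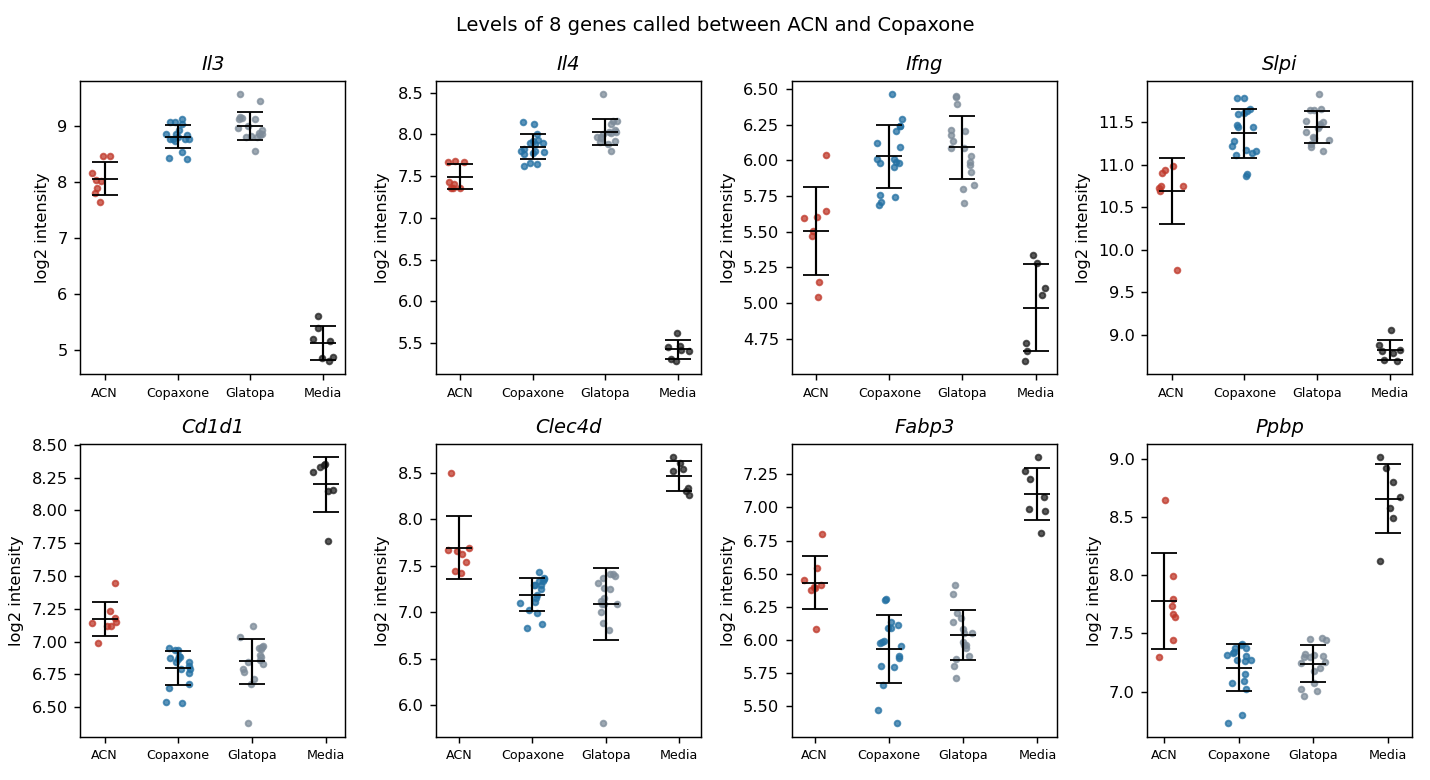
Log2 intensity of 4 genes called lower (Il3, Il4, Ifng, Slpi) and 4 called higher (Cd1d1, Clec4d, Fabp3, Ppbp) with ACN than with Copaxone, with 1 point per sample and bars for the mean and SD (ACN n = 8, Copaxone n = 17, Glatopa n = 16, Media n = 7). In each panel the ACN mean lies between those of Copaxone and Media, and a single ACN sample, replicate 4, is far from the others for Slpi and Clec4d.

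The other lower transcripts included Slpi, Crtam and Pth. Slpi, a secreted inhibitor of neutrophil serine proteases, had lowest, median and highest log2 values of 9.77, 10.75 and 10.98 with ACN and 10.86, 11.44 and 11.78 with Copaxone. Replicate 4 gave the lowest ACN value, and 3 ACN samples lay within the Copaxone range. Slpi differed by -0.68 (SE 0.13, limma adjusted p = 0.0359). Its call was lost without ACN replicates 1, 2, 4, 6, 7 or 8 or Copaxone lots 2, 4, 7 or 8 (adjusted p 0.0516 to 0.101). Crtam, an adhesion receptor of activated T and NK cells, had values of 5.19, 5.31 and 5.48 with ACN and 5.31, 5.74 and 6.24 with Copaxone, with 4 ACN samples under the Copaxone range. Crtam differed by -0.42 (adjusted p = 0.0342), and its ACN mean lay 0.00 above the Media mean, whereas the Copaxone mean lay 0.43 above it. Its call was lost without ACN replicates 1, 2 or 4 or Copaxone lots 2, 4, 5 or 7 (adjusted p 0.053 to 0.101). Pth, which encodes parathyroid hormone, stood at 5.60 ± 0.14 with ACN (SD, n = 8) and 6.05 ± 0.17 with Copaxone (SD, n = 17). The difference of -0.44 (adjusted p = 0.00756) kept its call when any single ACN sample or Copaxone lot was left out. Over all 27 alternative fits, the Pth call was lost in 2 (limma adjusted p up to 0.0565). Ch25h, the enzyme that makes 25-hydroxycholesterol, differed by -0.30, and Gbp2b, an interferon-inducible GTPase, by -0.31. A second, brighter Gbp2b probe differed by -0.25 and was not called. With 1 ACN sample or Copaxone lot left out, the Gbp2b call was lost in 14 fits and the Ch25h call in 9.

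The remaining lower genes had varied roles. Uck2, a kinase of pyrimidine salvage, stood at 8.11 ± 0.24 with ACN (SD, n = 8) and 8.52 ± 0.17 with Copaxone (SD, n = 17), a difference of -0.41 (adjusted p = 0.0359). The Uck2 call was lost without ACN replicates 1, 2, 4, 6 or 7 or any of Copaxone lots 2 and 4 to 9 (adjusted p 0.0543 to 0.131). Vps25, a subunit of the ESCRT-II complex, differed by -0.38, and 2 further Vps25 probes differed by -0.10 and -0.04 and were not called. Cstf2, a cleavage stimulation factor of mRNA 3′ ends, differed by -0.29, with a second probe at -0.07 that was not called. Acsl3, a long-chain acyl-CoA synthetase, differed by -0.26, Nudcd2 by -0.32 and Gm2056 by -0.23, and 2 called probes without a gene symbol differed by -0.28 and -0.40. With 1 ACN sample or Copaxone lot left out, Nudcd2 lost its call in 13 fits and Gm2056 in 14. Cstf2 lost its call in 10, Vps25 in 7 and Acsl3 in 6. All 16 ACN means lay below all 9 Copaxone lot means (4.06% of all probes did), which the choice of these probes from the same samples nearly fixes.

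The transcripts that were higher with ACN included genes of antigen-presenting cells. Cd1d1 (gene ID 12479), which presents lipids to NKT cells, had lowest, median and highest log2 values of 6.99, 7.15 and 7.45 with ACN and 6.54, 6.84 and 6.95 with Copaxone. It was the only probe of all, 0.00254%, in which no ACN sample fell within the Copaxone range, in either direction. The difference was 0.37 (SE 0.06, adjusted p = 0.00756) and kept its call when any single ACN sample or Copaxone lot was left out. Over all 27 alternative fits, the Cd1d1 call was lost in 2 (limma adjusted p up to 0.124). The level lay below Media in both groups, by 1.03 with ACN and by 1.40 with Copaxone. A second, dimmer Cd1d1 probe differed by 0.12 and was not called.

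Clec4d, a C-type lectin of myeloid cells, had values of 7.42, 7.64 and 8.49 with ACN and 6.83, 7.25 and 7.43 with Copaxone. The highest ACN value was again replicate 4, and 7 of 8 ACN samples lay above every Copaxone sample. The difference was 0.50 (SE 0.10, adjusted p = 0.0359), and the call was lost without ACN replicates 2, 4, 6, 7 or 8 or any of Copaxone lots 2 to 8 (adjusted p 0.0516 to 0.0819). Ppbp, the precursor of a neutrophil-attracting chemokine of platelets and myeloid cells, had values of 7.29, 7.70 and 8.65 with ACN and 6.73, 7.27 and 7.41 with Copaxone. Only 1 ACN sample, replicate 1, fell within the Copaxone range, and the difference was 0.57 (SE 0.12, adjusted p = 0.0403). This call was lost without ACN replicates 2, 4, 5, 6, 7 or 8 or any of Copaxone lots 1 to 8 (adjusted p 0.0551 to 0.105). Fabp3, a fatty acid binding protein, had values of 6.09, 6.41 and 6.80 with ACN and 5.37, 5.98 and 6.31 with Copaxone, with 7 of 8 ACN samples above the Copaxone range. Fabp3 differed by 0.50 (SE 0.10, adjusted p = 0.0359), with the call lost without ACN replicates 1, 2, 4, 6, 7 or 8 or any of Copaxone lots 2 to 7 (adjusted p 0.0547 to 0.135), and a dimmer Fabp3 probe differed by 0.02 and was not called.

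The other named higher transcripts were a mixed group. BC061237 had the largest rise among the called probes, 0.69 (SE 0.14, adjusted p = 0.0397), with values of 7.56, 7.97 and 8.69 with ACN and 6.76, 7.21 and 7.97 with Copaxone, and 2 further probes at 0.48 and 0.03 that were not called. ND4L, a mitochondrially encoded subunit of complex I, differed by 0.59 (adjusted p = 0.0428), with 4 of 8 ACN samples above the Copaxone range. Cited1, a transcriptional coregulator, differed by 0.35 and Skor1, a corepressor, by 0.41 (a second probe at 0.44 was not called). Tmem8b differed by 0.42, and a dimmer Tmem8b probe differed by 0.04 and was not called. Map6, a microtubule-stabilizing protein, differed by 0.31, but a dimmer Map6 probe differed by -0.09. 1700066B19Rik differed by 0.53, Vmn2r43 by 0.41 and Gm15520 by 0.38. With 1 ACN sample or Copaxone lot left out, the genes named in this paragraph lost their calls in 8 fits (1700066B19Rik) to 15 fits (Map6). BC061237 and ND4L each lost theirs in 14. The other 15 of the 28 carry no gene symbol, 53.6% against 25.3% of all probes, and differed by 0.30 to 0.61. All 28 ACN means lay above all 9 Copaxone lot means (4.62% of all probes did), and here too the choice of the probes nearly fixes the count.

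The called transcripts stood between Copaxone and Media in most cases. Their direction was read from the Glatopa and Media samples, which are shared with neither group. Relative to Media, Glatopa raised 2219 probes (5.63%) and lowered 2122 (5.38%) at an adjusted p under 0.05 and at least 1.3-fold. Of the 16 probes lower with ACN, 11 were raised by Glatopa and 0 lowered. Of the 28 higher with ACN, 26 were lowered by Glatopa and 0 raised. The 5 lower probes outside the Glatopa-responsive set were Vps25, Nudcd2, Acsl3, Gm2056 and 1 without a symbol. For Acsl3, Vps25 and Nudcd2 the ACN mean lay within 0.06 of the Media mean, at -0.00, -0.06 and 0.06, while the Copaxone mean lay 0.26, 0.32 and 0.37 above it. Gm2056 was the exception, with ACN 0.16 below Media and Copaxone 0.06 above. Its levels of 4.73 with ACN, 4.95 with Copaxone and 4.89 with Media lay near or below the array medians.

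**Figure D2:**
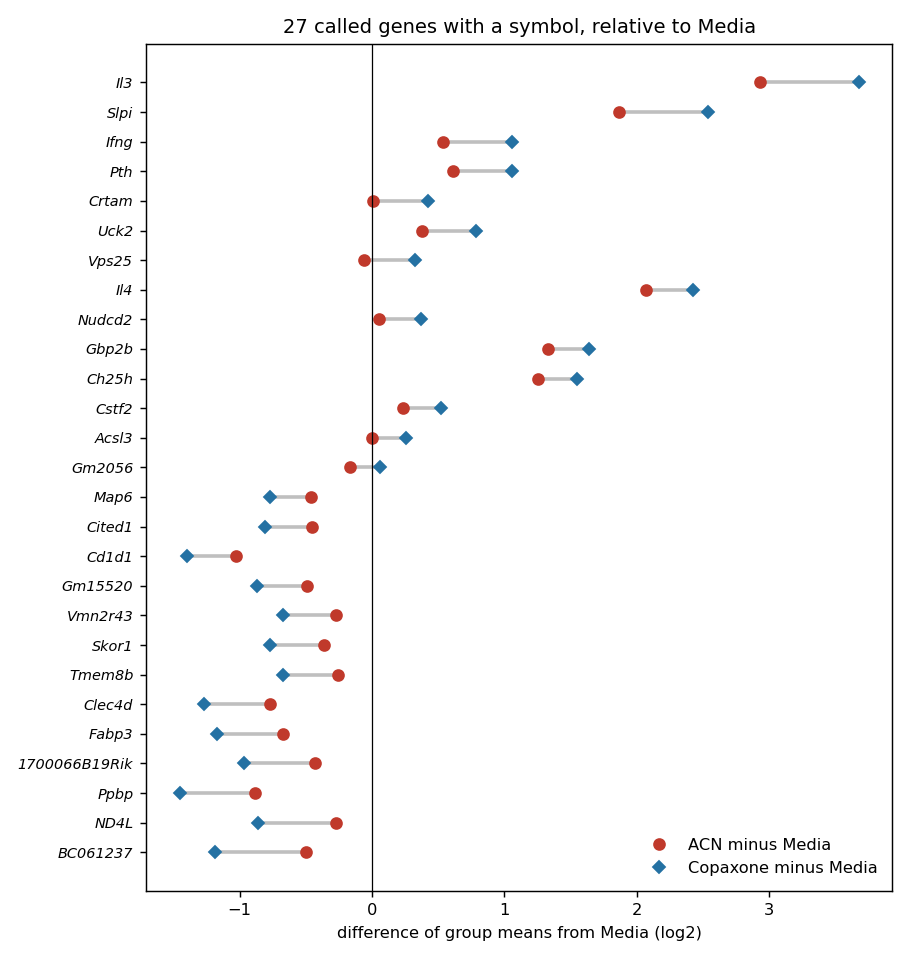
Log2 difference from the Media mean of the 27 called genes with a symbol, with circles for ACN (mean of 8 samples) and diamonds for Copaxone (mean of 17 samples), each set against the same 7 Media samples. ACN lies nearer to 0 than Copaxone in 26 of the genes, from Il3 at 2.93 against 3.68 to BC061237 at -0.49 against -1.18, and Gm2056 is the exception.

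The same relation held beyond the called probes. Among the 2219 probes that Glatopa raised, 86.6% had a negative difference between ACN and Copaxone, with a median of -0.11. Among the 2122 that it lowered, 84.8% had a positive difference, with a median of 0.14. The median of all other probes was -0.00. At an unadjusted p under 0.05, 375 of the raised probes were lower and 11 higher with ACN, and 694 of the lowered probes were higher and 13 lower. Across the 4341 responsive probes the difference between ACN and Copaxone had a Pearson correlation of -0.699 with that between Glatopa and Media, a description over probes of the same arrays, which are not independent of each other. Over all probes the correlation was -0.436.

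**Figure D3:**
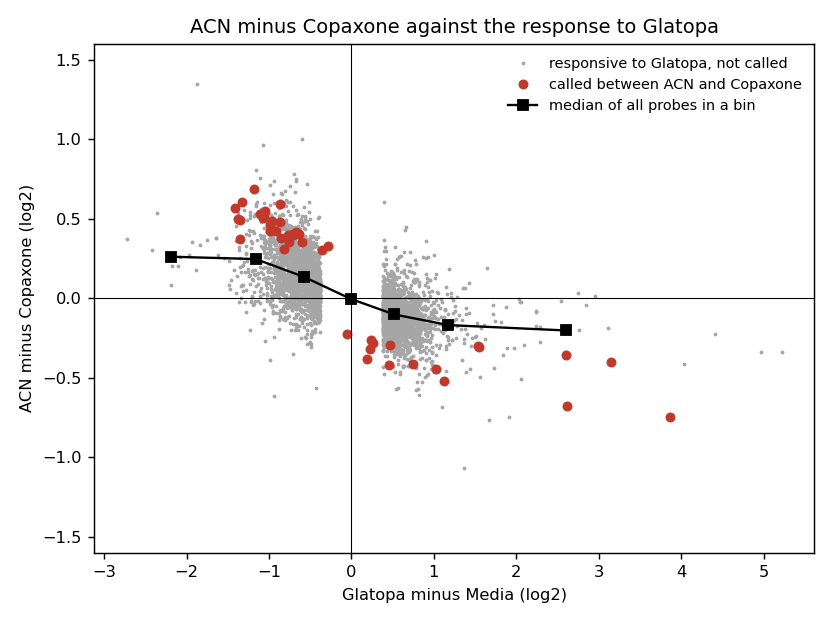
Log2 difference of ACN minus Copaxone (vertical) against Glatopa minus Media (horizontal), with grey points for Glatopa-responsive probes and red points for the 44 called between ACN and Copaxone. Black squares are medians of all probes in 7 bins of the horizontal axis and run from 0.26 on the left (a bin of 7 probes) through -0.00 to -0.20 on the right (25 probes).

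To give each sample 1 value, its deviation from the Media mean was regressed on the mean difference between Glatopa and Media over the 4341 responsive probes. The slope, here the response index, is 0 at the Media mean and 1 at the Glatopa mean. The 8 ACN samples had indices of 0.497 at the lowest, 0.800 at the median and 0.868 at the highest. The 17 Copaxone samples had 0.877, 0.957 and 1.08. The groups did not overlap, and the ACN mean lay under every Copaxone lot mean, which ranged from 0.902 to 1.08. The means were 0.761 ± 0.117 with ACN (SD, n = 8) and 0.963 ± 0.0511 with Copaxone (SD, n = 17), so the ACN mean was 79.0% of the Copaxone mean. The difference of -0.202 (SE 0.0431) had p = 9.25e-07 in a two-sided exact permutation test over all 1081575 assignments of the samples, the smallest p that the test can give. ACN replicate 4, at 0.497, was the lowest, and without it the other 7 ACN samples averaged 0.799 ± 0.0517 (SD) and the difference was -0.164 (exact permutation p = 2.89e-06). With Copaxone lot means in place of samples, 8 ACN samples against 9 values, the difference was -0.208 (exact permutation p = 4.11e-05). The 8 ACN values were still wells of 1 lot, so neither test measures the spread between lots of ACN.

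**Figure D4:**
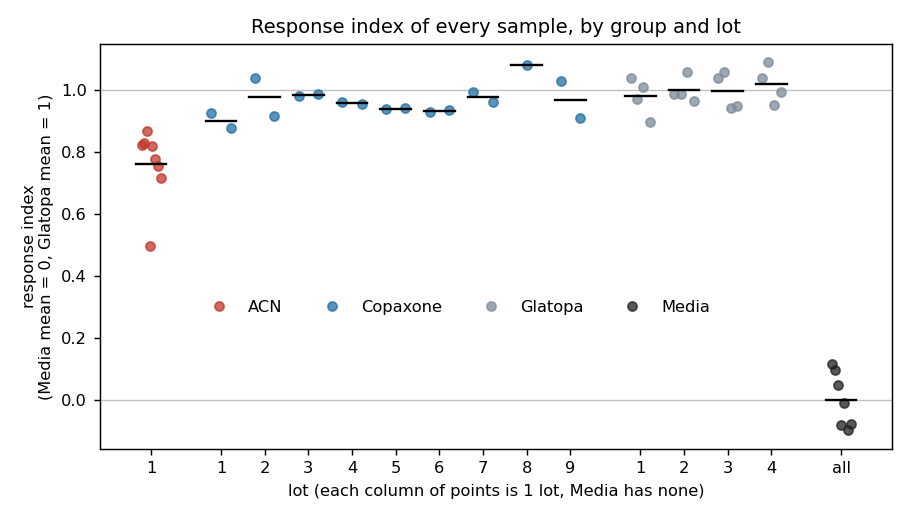
Response index of every sample, with 1 column of points per lot and a line at its mean: ACN (1 lot, 8 samples), Copaxone (9 lots, 17 samples), Glatopa (4 lots, 16 samples) and Media (7 samples). The highest ACN sample, 0.868, lies under the lowest Copaxone sample, 0.877, and ACN replicate 4 lies at 0.497.

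On each side of the axis, the mean deviation from Media was smaller with ACN. Over the probes raised by Glatopa, the mean deviation from Media was 0.482 ± 0.0759 with ACN (SD, n = 8) and 0.599 ± 0.0311 with Copaxone (SD, n = 17). Over those lowered by Glatopa, it was -0.486 ± 0.0943 with ACN and -0.648 ± 0.0517 with Copaxone. In each case 7 of 8 ACN samples were nearer to Media than every Copaxone sample, and replicate 3 fell at the edge of the Copaxone range. The Glatopa means were 0.627 ± 0.0387 for raised and -0.668 ± 0.0457 for lowered probes (SD, n = 16). The index was also fitted to each side alone, and whether the sides differ was not tested. For raised probes the slopes ranged from 0.796 to 0.959 with ACN and from 0.844 to 1.03 with Copaxone, so the groups overlapped and only 3 ACN samples were under the Copaxone range. For lowered probes the slopes ranged from 0.474 to 0.808 with ACN and from 0.882 to 1.14 with Copaxone, and the groups did not overlap.

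The comparison of ACN with Glatopa uses the same 8 ACN samples, so its values for the called probes are given side by side and are no independent support. All 16 lower probes were also below Glatopa and 9 of them were called (0.185% of all probes were called lower), and all 28 higher probes were above Glatopa and 23 were called (0.495% of all probes were called higher). Il3 differed from Glatopa by -0.94 and from Copaxone by -0.75, and Il4 by -0.53 and -0.36.

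T cell chemokines and cytotoxic genes lay lower with ACN as groups, without single calls. T cell activation receptors and transcription factors had medians near 0. The T cell chemokines had the lowest median of the 39 lists, -0.34 over 5 genes, with 3 lower at an unadjusted p under 0.05, where 3.87% of all probes were. Xcl1, a chemokine for cross-presenting dendritic cells, had values of 5.38, 6.09 and 6.27 with ACN and 5.78, 6.44 and 7.02 with Copaxone, and differed by -0.50 (SE 0.12, adjusted p = 0.116). Ccl1, the CCR8 ligand of Th2 cells, differed by -0.34 (adjusted p = 0.361) beside a level over Media of 4.54 with ACN and 4.87 with Copaxone. Ccl5, a chemokine of T cells and monocytes, was the only member with a positive value, 0.21, and was not called. Among 14 granzymes and cytotoxic genes the median was -0.09, with 4 at an unadjusted p under 0.05, all lower, again beside 3.87% of all probes. Nkg7, a granule protein needed for degranulation, differed by -0.32, the pore-forming Prf1 by -0.32 and Gzma by -0.34, none of them called. Single samples overlapped: the chemokine list mean was 7.52 to 8.13 with ACN and 7.78 to 8.46 with Copaxone. The cytotoxic list mean was 6.20 to 6.36 and 6.27 to 6.63. T cell activation receptors had 9 of 18 positive (median 0.003) and 4 lower at an unadjusted p under 0.05, with Crtam called. T helper and activation transcription factors had 12 of 24 positive (median -0.005) and 3 lower at that limit. In the 17 other T cell cytokines Ifng was the only call. Tnf, of the inflammatory cytokines, differed by -0.13.

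Lists of growth and proliferation genes also had medians below 0. Of 38 cell cycle genes, 34 had a negative difference and 12 passed an unadjusted p under 0.05, all lower, with a median of -0.16 and 0 called, against 3.87% of all probes lower at that limit. Gins1, a subunit of the replicative helicase, had values of 5.68, 5.99 and 6.26 with ACN and 6.03, 6.36 and 6.65 with Copaxone and differed by -0.36 (adjusted p = 0.0524). Cdk1, the mitotic kinase, differed by -0.32 (adjusted p = 0.0858), although 1 of its 3 probes was positive, and the cyclin Ccna2 differed by -0.40. Ribosome biogenesis and MYC targets had 11 of 28 lower at an unadjusted p under 0.05 and a median of -0.14, with the RNA helicase Ddx21 at -0.33 and Wdr43 at -0.32. All 24 genes of cholesterol and fatty acid synthesis had negative differences (median -0.13), with 4 at an unadjusted p under 0.05. Insig1, a sterol-regulated brake on this pathway, differed by -0.22 and Fdps, an enzyme of isoprenoid synthesis, by -0.24. Glycolysis had a median of -0.15 with 18 of 19 negative, nucleotide and one-carbon synthesis -0.10 and tRNA synthetases -0.10.

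These lists are ones that Glatopa raised. The median difference from Media was 0.46 with ACN and 0.60 with Copaxone for the cell cycle, 0.43 and 0.58 for ribosome biogenesis, 0.48 and 0.57 for cholesterol and fatty acid synthesis, and 0.28 and 0.35 for glycolysis, with ACN given first. The list mean of cell cycle genes ranged from 6.52 to 7.14 across ACN samples and from 6.83 to 7.15 across Copaxone samples, so single samples overlapped. Cytosolic ribosomal proteins had a median of -0.08 that became -0.00 after cyclic loess normalization, so no direction is given for them. Targets of IL-2 and STAT5 had a median of -0.09, with Bcl2l1, an inhibitor of apoptosis, at -0.28 (1 of its 2 probes was positive) and Myc at -0.19.

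Genes of macrophages and of lysosomes lay higher with ACN as groups. C-type lectins of APCs had 14 of 18 positive and 6 at an unadjusted p under 0.05, all higher, with a median of 0.09 and 1 call (Clec4d), against 4.14% of all probes higher at that limit. Clec4n, the dectin-2 receptor for fungal mannans, had values of 7.65, 7.95 and 8.42 with ACN and 6.72, 7.58 and 8.06 with Copaxone, and differed by 0.50 (SE 0.12, adjusted p = 0.109). Clec7a, the dectin-1 receptor for fungal glucans, differed by 0.29, and Cd209d by 0.25. Lysosome and lipid handling had 20 of 26 positive and 6 at an unadjusted p under 0.05, all higher, with a median of 0.09 and 1 call (Fabp3). Apoe, a lipid carrier of macrophages, had values of 8.14, 8.36 and 8.67 with ACN and 7.74, 7.99 and 8.60 with Copaxone, and differed by 0.37 (SE 0.09, adjusted p = 0.0844). The lysosomal proteases Ctsd and Ctsl differed by 0.29 and 0.37, none of them called. Lysosome genes stood below Media in both groups, with a median of -0.54 with ACN and -0.63 with Copaxone.

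Markers of the cell types in the wells moved with these lists to a small extent, and their part in the results was not tested. Of 26 monocyte and macrophage markers, 17 were positive and 5 passed an unadjusted p under 0.05, all higher, with a median of 0.07, while 18910 of 39430 probes were positive and 4.14% were higher at that limit. The list mean ranged from 6.11 to 6.35 with ACN and from 6.08 to 6.19 with Copaxone. The members with the smallest p were Lyz1, a lysozyme, at 0.38, Cd93 at 0.28 and Csf1r, the receptor for the macrophage growth factor, at 0.26. None of them was called. In 9 of the 26 the difference was negative, down to -0.18. Neutrophil markers had a median of 0.05, with 13 of 18 positive and 5 negative, down to -0.05. Of these 18, 2 were higher at an unadjusted p under 0.05, S100a8 at 0.34 and Camp at 0.29. The neutrophil list mean ranged from 5.80 to 5.95 with ACN and from 5.75 to 5.89 with Copaxone. Many members of the macrophage and neutrophil lists lay near the array medians. Medians were 0.04 for T cell identity (list mean 6.85 to 7.28 with ACN and 6.77 to 7.10 with Copaxone), -0.03 for NK cells, -0.02 for platelets and -0.01 for B cells, whose sign turned after cyclic loess. Most NK cell and platelet markers lay near the array medians with ACN and with Copaxone, so their list medians say little about these cells. Ppbp was the only platelet marker called, and Pf4, another platelet chemokine, differed by 0.15. The B cell gene Cr2 showed 1 ACN sample at 14.69 against an ACN median of 7.05.

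**Figure D5:**
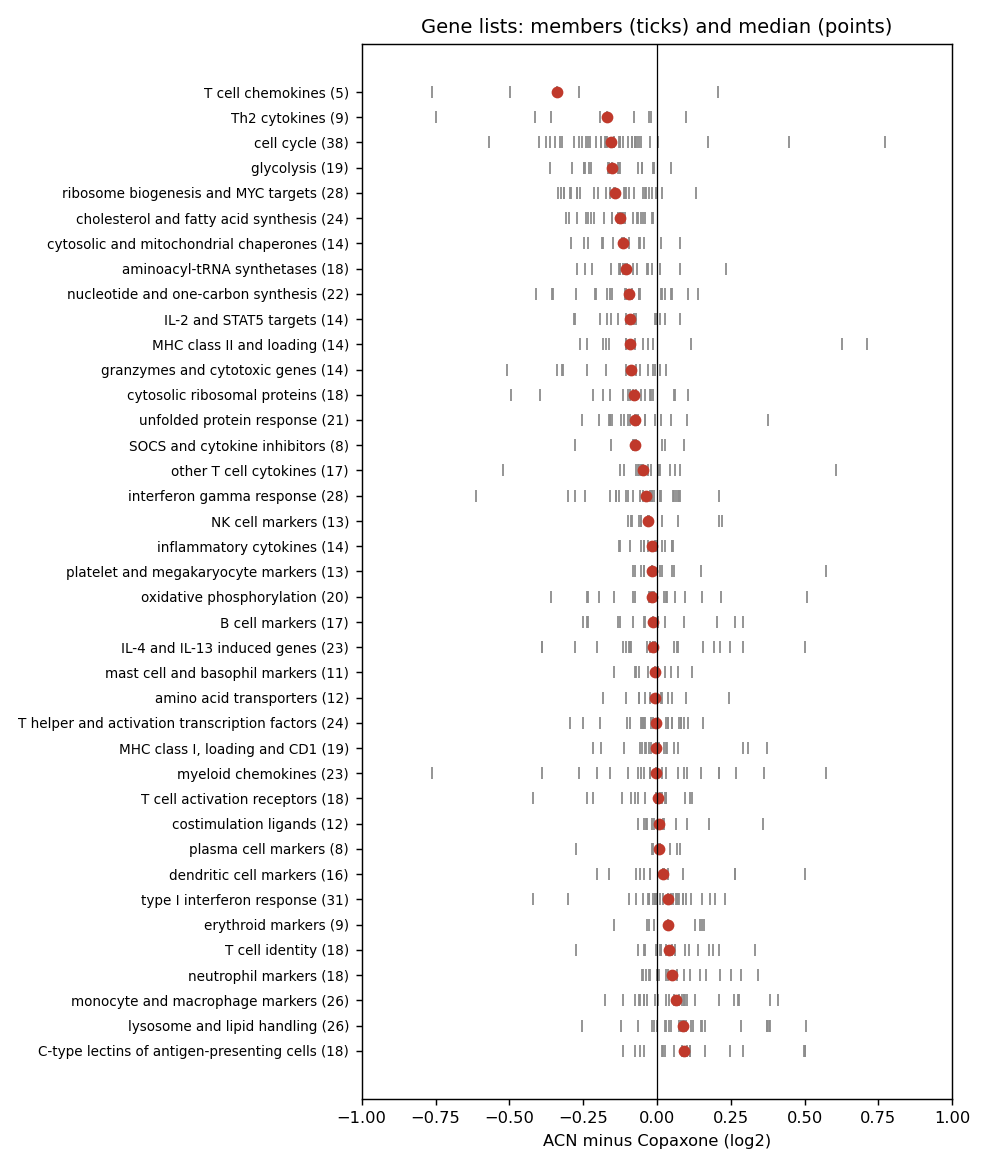
Log2 difference of ACN minus Copaxone for each measured member (ticks) and the median (points) of 39 gene lists, with the number of members in brackets and 2 member values outside the axis. Medians run from -0.34 for T cell chemokines to 0.09 for C-type lectins of APCs, while the median of all probes is -0.00.

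Not every transcript that Glatopa raised was lower with ACN. Arg1, the arginase of alternatively activated macrophages, stood 0.86 above Media with ACN and 0.64 above it with Copaxone, a difference of 0.21 (adjusted p = 0.450). Cxcl3, a neutrophil-attracting chemokine, stood 1.3 above Media with ACN and 0.94 above it with Copaxone, a difference of 0.36 (SE 0.12, adjusted p = 0.332). Neither was called. Other macrophage genes known to be induced by Th2 cytokines went either way, with Tgm2, a transglutaminase, at -0.39 (adjusted p = 0.126) and Clec10a, a galactose-binding lectin, at 0.50 (adjusted p = 0.323), and the median of that list was -0.01. The interferon gamma response list had a median of -0.04 (-0.01 after cyclic loess), with 9 of 28 positive. Of the 28, 3 were lower at an unadjusted p under 0.05, where 3.87% of all probes were. Among them were the immunoproteasome subunit Psmb10 at -0.30 and the GTPase Gbp4 at -0.24. Among costimulatory ligands Cd80 differed by 0.36 (1 of its 2 probes was positive) and Icosl by 0.18, neither called. In the MHC class I and CD1 list Cd1d2, the paralogue of Cd1d1, differed by 0.29 (1 of its 2 probes was positive) and B2m, the light chain of both kinds of molecule, by -0.22.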

How the data were processed

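Values were taken from the deposited series table. The authors hybridized Cy3-labelled cRNA to Agilent mouse arrays, corrected spot intensities with normexp (offset 8), and deposited log2 values after quantile normalization with limma, whose version is not given in the sources used here. Since values are quantile-normalized, a shift of all genes cannot be seen. Where a symbol and accession occurred on 10 spots or more, these were averaged (387 cases). No detection filter was applied.

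ACN and Copaxone were compared by lmFit and eBayes (limma 3.58.1, R 4.3.3, tables read by the data.table package), with Benjamini-Hochberg adjustment over all probes and a limit of 0.05. The response index used Glatopa and Media to fix its axis and was tested with an exact permutation test. A listed gene was represented by its brightest probe. Called probes with a symbol, all members of the cytokine lists and up to 4 members with the smallest p of each other list could be named. Cd79b, Cd4, Cr2 and Pf4 were named outside this rule, after their values were seen. The groups, lists and tests were chosen with earlier results of these data known. Scripts were tested on simulated data. Alternatives were other tests, normalizations, blocks, probe sets and omitted samples. Slide positions were not analysed here. The number of arrays limits the precision.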

Additional observations from a re-analysis of the deposited data

Results flagged for a closer look

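ACN replicate 4 lay far from the other ACN samples in 6 results, judged by Dixon's ratio of the gap to the range, with the 95% critical value for 8 samples as the limit. The ratio was 0.589 for the response index (lowest), 0.761 for Slpi (lowest), 0.746 for Clec4d (highest), 0.537 for BC061237 (highest), and 0.535 and 0.598 for the unnamed probes with the IDs 43591 and 35652 (highest). Chance flags about 5% of independent groups, and 44 called probes and the index were examined. The probes share arrays and were called with replicate 4 included, so that rate does not apply to them. The same array set all 6, in each case on the side of Media. Of the 44 called probes, replicate 4 was the sample farthest in the direction of the difference in 33, 8 of the 16 lower and 25 of the 28 higher. Calling probes from the same samples favours those with an extreme sample on that side, and only 5 were called without replicate 4. The side and these counts are therefore a description and no independent support. The share over all probes is not given.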

How the results depend on the processing

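The response index kept its sign and stayed under 0.05 in all 25 alternatives, with slopes from -0.217 to -0.152 and -0.0564 for a Spearman correlation in place of the slope (exact permutation p = 0.0235). The counts of called probes did not. In place of 44 called (28 higher, 16 lower), limma gave 3 (1 higher, 2 lower) with an intensity trend and a robust prior, 92 (58, 34) with all 4 groups in one fit, 77 (50, 27) with lot as a random block, 86 (59, 27) with the first within-group component as a covariate, 4 (1, 3) after Bonferroni correction and 26 (10, 16) with means per gene symbol. The methods' t-test gave 11 (5, 6) with Benjamini-Hochberg and 11 (5, 6) with q-values. Without the 4 arrays that stand apart, an alternative chosen after seeing the data, there were 6 (2, 4). ACN and Copaxone share only replicate numbers 1 and 2, whose deviations correlated at 0.00354 and -0.467, so the numbers do not pair samples. The replicate block gave 42 (13 higher, 29 lower), 2 of them among the 44, and uses no ACN sample numbered 3 to 8. Array weights, cyclic loess, median centring, the brighter probes alone and unaveraged spots stayed within 1.5 times the count.

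Leaving out 1 ACN sample or Copaxone lot gave 4 to 62 called probes, 1 to 43 higher and 3 to 20 lower. The total was 21, 7, 5, 22 and 28 in the absence of ACN replicates 1, 2, 4, 7 and 8. It was 4, 28, 6, 18, 28, 5 and 21 in the absence of Copaxone lots 2, 3, 4, 5, 6, 7 and 8. The cause was not tested. The 27 called genes with a symbol kept their sign in all 27 alternatives run for each, and were called again in 375 of these fits and not in 354. Among the genes without a call, Il5 was 0.32 under the replicate block, 0.0225 after cyclic loess, 0.0162 without the 4 arrays and -0.106 to 0.0201 with 1 sample or lot left out. Il13 was 0.29 and Il31 -0.14 under the replicate block, Il10 was 0.0481 in unaveraged spots, and Il24 was -0.0481 to 0.00151 with 1 sample or lot left out. Signal over background was not analysed here, and called genes such as Ifng, Crtam, Acsl3 and Gm2056 lay near the array medians.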
